A study of Mus musculus with 6 samples.

Results

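Embryonic skeletal muscle genes were followed through 6 tubes of cultured submandibular glands. The list of 37 genes was taken by symbol, from myogenic regulators to sarcomere, endplate and calcium-release components, and all 37 were found among the 23260 genes of the count tables. Of these, 32 had enough counts to be tested together with 13610 genes in all, and 5 (Pax7, Myf5, Myf6, Myh7 and Musk) were too low. The glands came from ICR mouse embryos at embryonic day 14 and were cultured ex vivo. The treated glands received 50 µM AMD3100, which blocks the chemokine receptor CXCR4, and both groups were collected 6 h after treatment. Each of the 3 control tubes and 3 AMD3100 tubes (replicates 1, 2 and 3) pooled up to 10 glands with their mesenchyme retained, and all animals carried the same strain background with no transgene named. Library totals ran from 9051595 to 14393031 counts, of which Rn45s, the ribosomal RNA precursor, took 16.2% to 32.5%. Nothing in the labels says that the tubes came from separate litters, so p-values measure the spread between these tubes, which may be partly technical. Markers of salivary epithelium (8 genes) summed to 1271 to 3208 CPM (counts scaled to library size after TMM normalization) and those of gland mesenchyme (7 genes) to 1055 to 2615 CPM, so both labelled tissues were present in every tube.

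Skeletal muscle forms from progenitors that express the paired-box factors Pax3 and Pax7, commit under Myf5 and Myod1, and fuse into fibers once Myog is switched on, with Mef2c as a partner. The new fibers then fill with contractile proteins, first in embryonic forms that are later replaced by adult ones, and gather acetylcholine receptors under the incoming nerve. The submandibular gland itself is built of epithelium, mesenchyme, nerve and vessels, and lies next to muscles of the floor of the mouth. In bulk RNA, fewer cells of a type and less RNA per cell cannot be told apart.

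Myogenic factors bind the E-box CANNTG, often as CAGCTG, MEF2 proteins bind a site of the form CTANNNNTA, and serum response factor binds the CArG box. The 250 bases before the start site of 5 members are shown because they carry these letters upstream of genes that did and did not differ between tubes below. They are RefSeq sequences on GRCm38.p6, the mm10 build of the count tables, written 5′ to 3′ along the gene, and capitals mark CANNTG, CTANNNNTA on either strand and the CArG box. Myog (chr1:134289754-134290003, plus strand) and Chrna1 (chr2:73580339-73580588, minus strand) hold E-boxes and a CTANNNNTA match, Actc1 (chr2:114052876-114053125, minus strand) a CArG box, Mylpf (chr7:127211358-127211607, plus strand) a single CAGCTG, and Myl1 (chr1:66945057-66945306, minus strand) a CAGCTG and a CTANNNNTA match.
Myog: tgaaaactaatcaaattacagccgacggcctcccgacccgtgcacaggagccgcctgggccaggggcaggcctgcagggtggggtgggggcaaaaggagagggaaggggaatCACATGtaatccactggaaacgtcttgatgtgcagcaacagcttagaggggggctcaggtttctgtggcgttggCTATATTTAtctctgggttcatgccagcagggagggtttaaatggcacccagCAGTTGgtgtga
Chrna1: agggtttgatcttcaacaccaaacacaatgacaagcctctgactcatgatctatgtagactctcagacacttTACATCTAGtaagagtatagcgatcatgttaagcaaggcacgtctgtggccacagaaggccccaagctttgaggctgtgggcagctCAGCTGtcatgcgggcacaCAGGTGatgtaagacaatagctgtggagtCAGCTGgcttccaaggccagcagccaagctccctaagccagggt
Actc1: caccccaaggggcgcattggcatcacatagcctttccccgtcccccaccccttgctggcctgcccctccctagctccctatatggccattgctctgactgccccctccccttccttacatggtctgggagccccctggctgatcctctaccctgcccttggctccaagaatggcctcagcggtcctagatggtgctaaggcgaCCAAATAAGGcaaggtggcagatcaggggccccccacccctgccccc
Mylpf: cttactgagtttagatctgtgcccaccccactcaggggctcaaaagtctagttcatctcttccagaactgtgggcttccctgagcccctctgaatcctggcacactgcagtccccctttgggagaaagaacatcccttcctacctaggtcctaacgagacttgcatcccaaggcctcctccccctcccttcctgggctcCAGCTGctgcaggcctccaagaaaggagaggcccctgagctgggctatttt
Myl1: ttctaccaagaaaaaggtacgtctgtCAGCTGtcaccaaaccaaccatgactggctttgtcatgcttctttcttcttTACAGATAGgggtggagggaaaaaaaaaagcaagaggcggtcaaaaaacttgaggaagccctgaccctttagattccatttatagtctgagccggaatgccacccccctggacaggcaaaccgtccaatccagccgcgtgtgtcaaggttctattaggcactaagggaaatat

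Promoters were found for 30 of the 37 members (36 start sites). On either strand of these 250 bases, CANNTG occurred in 75.0% of the members' promoters against 66.2% of all 32851 promoters in the table, and CAGCTG, which is counted within CANNTG, in 36.1% against 13.0%. CTANNNNTA was present in 44.4% against 19.0%, and the CArG box in 11.1% against 1.47%. Start sites of the same gene can overlap. Both windows of Ldb3 hold the same CArG box, and both of Tnni1 the same CAGCTG and CTANNNNTA match, so these were counted in each. A match is a run of letters and says nothing of binding in these glands.

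Summed over the 37 genes, muscle transcripts took 0.265% of all counts (95% Wilson interval 0.262 to 0.268) in control replicate 3 and 0.359% (0.355 to 0.363) in AMD3100 replicate 3. The other 4 tubes were lower, with 0.0629% and 0.0648% in control replicates 1 and 2 and 0.0546% and 0.0364% in AMD3100 replicates 1 and 2. The mean of both replicate 3 tubes thus stood 5.70-fold above that of the others, by 4.14-fold within control and 7.89-fold within AMD3100. The intervals treat each read as a separate draw and leave out the spread between tubes. Since PCR copies of a read are not separate molecules, they may be too narrow even for counting error. Without the 12 members that heart or smooth muscle also use, the ratio was 7.94-fold, and without Actc1, the member with the most counts, 6.43-fold. On average, the largest part of the summed counts was on thin filament genes, followed by regulators and myosins, in replicate 3 and in the other tubes.

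**Figure D1:**
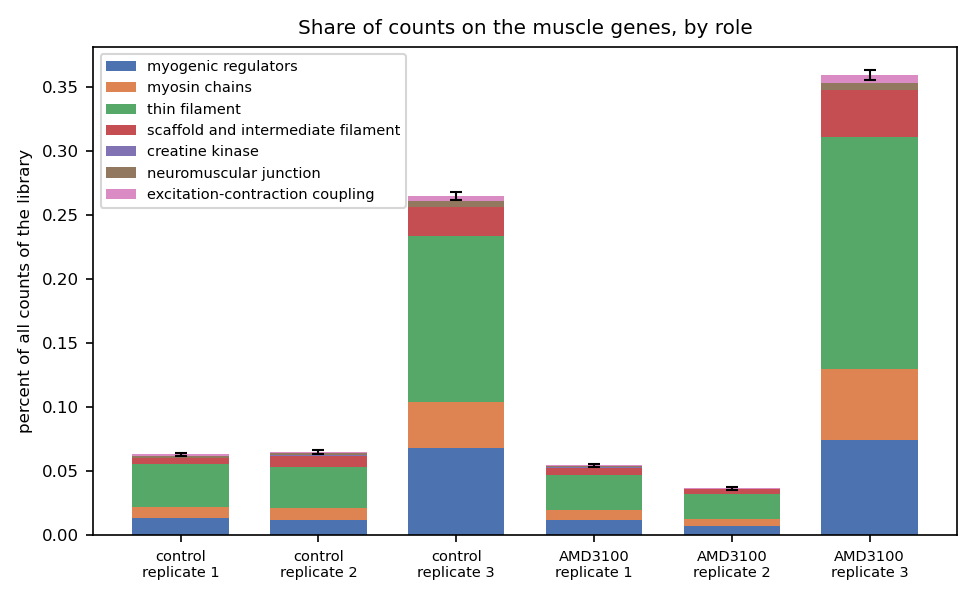
Share of all counts of each library (percent) that fell on the 37 muscle genes, stacked by role, with the 95% Wilson interval of the sum. Control and AMD3100 replicate 3 reached 0.265% and 0.359%, and the other 4 libraries lay between 0.0364% and 0.0648%.

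Replicate 3 was compared with replicates 1 and 2 in edgeR with the treatment as a term, so that each fold change is the level in the 2 replicate 3 tubes over that in the other 4. Of the 32 tested members, 23 were called higher (adjusted p under 0.05) and 0 lower, which is 71.9%, where 24.2% of all genes tested were called, 13.1% higher and 11.1% lower. The median log2 fold change of the members was 2.60, and that of all genes −0.00. Both replicate 3 libraries stood above the other 4 for 28 of the 32 members, against 23.1% of all genes tested. When libraries were scaled by their totals only, 1119 genes were called higher and 1795 lower in place of 1787 and 1506, with the median of all genes at −0.21, and 20 members were called, all higher. Since replicate 3 was known to stand apart before these genes were listed, the tests describe these tubes. Without AMD3100 replicate 3, with the lone replicate 3 tube assumed to vary like the others, 13 members and 1795 genes were called (7.33% of genes higher). Without control replicate 3, 23 members and 1593 genes were called (6.78% higher).

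**Figure D2:**
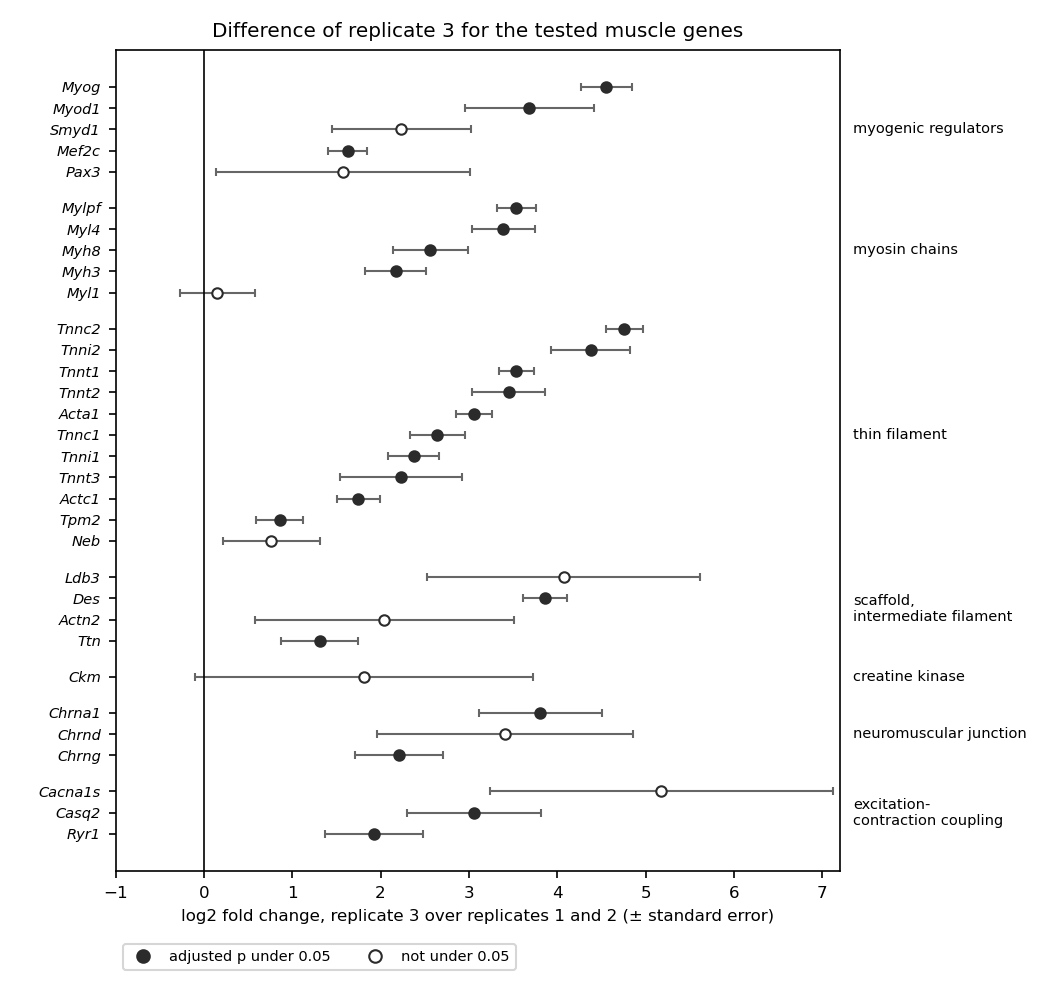
Log2 fold change of replicate 3 over replicates 1 and 2 (± standard error) for the 32 tested muscle genes, grouped by role, with filled points for an adjusted p under 0.05. All 32 points lie above 0, from 0.15 for Myl1 to 5.18 for Cacna1s, whose counts were low.

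Among the regulators, Myog, the factor that drives myoblasts into differentiation (chr1:134290004-134292548), showed the widest gap. It was at 41, 39.9 and 519.7 CPM in control replicates 1, 2 and 3 and 13.9, 9.94 and 485 CPM in the AMD3100 replicates. Both replicate 3 tubes stood far above the other 4 (log2 fold change 4.56, SE 0.29, adjusted p = 1.03e-06), by 12.8-fold within control and 40.7-fold within AMD3100. Myod1, which commits cells to the lineage, was at 6.21, 7.2 and 42.6 CPM in control and 2.01, 0 and 27.1 CPM with AMD3100 and rose in replicate 3 (log2 fold change 3.68, SE 0.73, adjusted p = 0.00277), a call that DESeq2 did not make (SE 1.61, adjusted p = 0.0599). AMD3100 replicate 2 held no count of Myod1, which allows up to 0.276 CPM (3 counts). Mef2c, which also acts in heart and vessel, was at 83.4, 66.7 and 159 CPM in control and 77.6, 56.3 and 289.7 CPM with AMD3100 (log2 fold change 1.63, SE 0.22, adjusted p = 2.46e-04).

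The earlier steps of the lineage were much nearer to the detection limit. Pax3 was at 2.62, 0.436 and 3.78 CPM in control and 2.93, 0 and 5.27 CPM with AMD3100, with a difference that did not pass (log2 fold change 1.57, SE 1.44, adjusted p = 0.503). Pax7 had 8 and 10 counts in the replicate 3 tubes and none in the other 4, which puts replicate 3 at least 4.35-fold higher than the floor of 3 counts per library. Myf5 had 8 counts in control replicate 2, 1 in control replicate 3 and none elsewhere, and Myf6, a factor of later fibers, had no count in any tube, which allows at most 0.173 to 0.368 CPM. Smyd1, a methyltransferase of myofibril assembly, was at 3.32, 0.145 and 11.3 CPM in control and 3.68, 7.82 and 19.1 CPM with AMD3100 (log2 fold change 2.24, SE 0.79, adjusted p = 0.0604). It was higher in both replicate 3 tubes but did not pass the test.

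Of the myosin chains, 4 of the 5 tested were called higher. Myh3, the embryonic heavy chain, was at 31.5, 34.3 and 69.4 CPM in control and 19.6, 17 and 152 CPM with AMD3100 (log2 fold change 2.17, SE 0.35, adjusted p = 6.80e-04), and Myh8, the perinatal heavy chain, at 4.98, 4.51 and 16.8 CPM in control and 7.02, 3.59 and 48.8 CPM with AMD3100 (log2 fold change 2.56, SE 0.42, adjusted p = 8.72e-04). In both genes AMD3100 replicate 3 was the highest tube, and neither call remained without it. Mylpf, the regulatory light chain of fast fibers, was at 34.3, 23.3 and 235 CPM in control and 19.6, 20.4 and 319.7 CPM with AMD3100 (log2 fold change 3.54, SE 0.22, adjusted p = 1.03e-06). Myl4, the light chain of embryonic muscle and atrium, was at 2.62, 6.91 and 51 CPM in control and 5.23, 8.37 and 69.9 CPM with AMD3100 (log2 fold change 3.39, SE 0.36, adjusted p = 3.58e-05). Myl1, the essential light chain of fast fibers, showed no difference that passed. It was at 12.2, 18.6 and 10.7 CPM in control replicates 1, 2 and 3 and 10.9, 9.02 and 16.8 CPM in the AMD3100 replicates (log2 fold change 0.15, SE 0.43, adjusted p = 0.856), so that the tubes overlapped, with a fold of 0.691 within control and 1.69 within AMD3100. Its promoter above carries the same kinds of E-box and CTANNNNTA letters as those of Chrna1. Myh7, the slow heavy chain, had 3 and 11 counts in control and AMD3100 replicate 3 and none elsewhere.

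**Figure D3:**
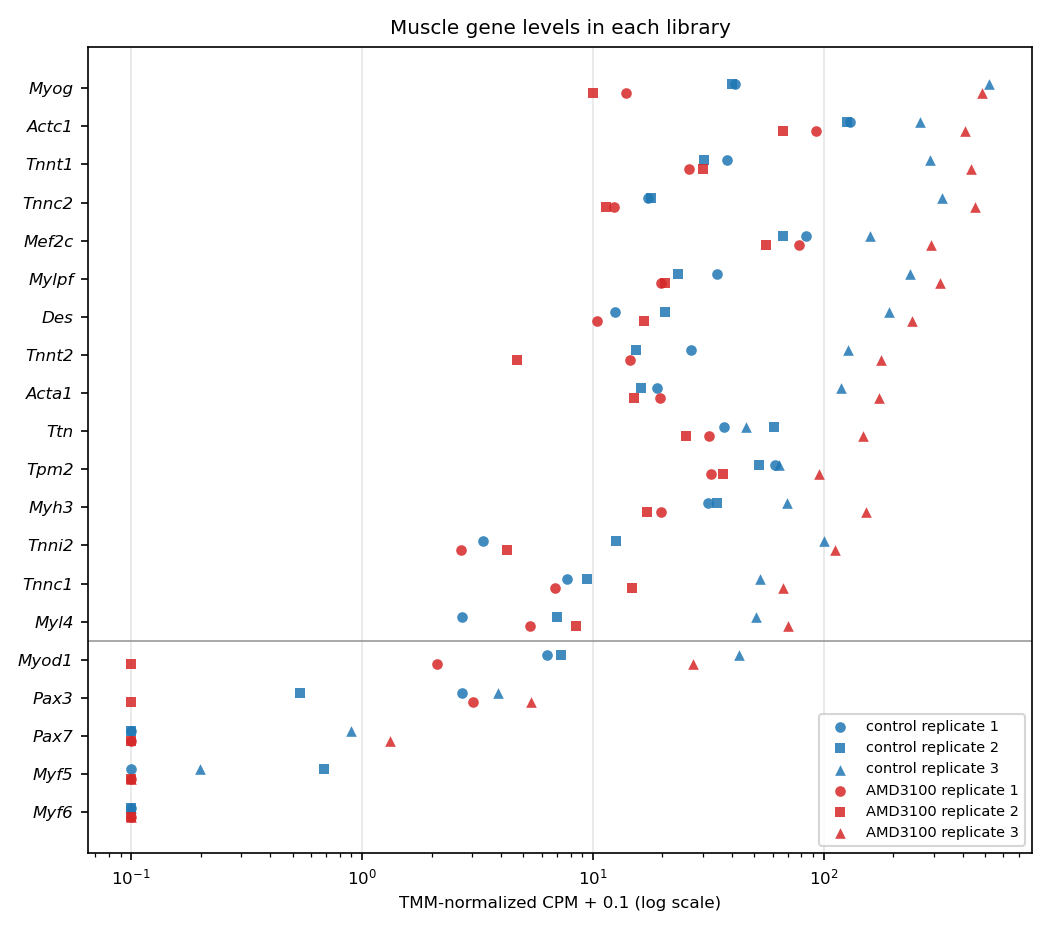
TMM-normalized CPM plus 0.1 on a log axis in each of the 6 libraries, for the 15 muscle genes with the highest mean CPM (above the line) and for Myod1, Pax3, Pax7, Myf5 and Myf6. Triangles (replicate 3) lie to the right of all other symbols for 14 of the upper 15 genes, and for Ttn control replicate 3 lies among the others.

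All 7 troponin genes, the calcium switch of the thin filament, were called higher, fast and slow forms alike. Tnnc2, the calcium-binding subunit of fast fibers, was at 17.2, 17.7 and 324 CPM in control replicates 1, 2 and 3 and 12.2, 11.3 and 452 CPM in the AMD3100 replicates (log2 fold change 4.76, SE 0.21, adjusted p = 1.91e-07). No other tested member had a lower adjusted p. However, 177 of the 251 windows of 50 bases at its 3′ end are shared with Ube2c, a cell cycle gene encoded next to it, which had 1256 and 462 counts in the replicate 3 tubes and 692 to 1104 in the others, so reads of both genes may be exchanged. Its fast partner Tnni2, the inhibitory subunit, was at 3.23, 12.5 and 99.9 CPM in control and 2.59, 4.14 and 111 CPM with AMD3100 (log2 fold change 4.38, SE 0.45, adjusted p = 3.10e-05). Tnnt3, the fast subunit that binds tropomyosin, was at 4.02, 5.45 and 9.46 CPM in control and 4.6, 0.92 and 25.7 CPM with AMD3100 (log2 fold change 2.23, SE 0.69, adjusted p = 0.0341).
The slow and cardiac forms followed. Tnnt1, of slow fibers, was at 38.1, 30.3 and 287 CPM in control and 26, 29.9 and 436 CPM with AMD3100 (log2 fold change 3.54, SE 0.20, adjusted p = 5.83e-07), and Tnnt2, the cardiac form that embryonic skeletal muscle also uses, at 26.5, 15.3 and 127 CPM in control and 14.4, 4.6 and 176 CPM with AMD3100 (log2 fold change 3.45, SE 0.41, adjusted p = 9.04e-05). Tnni1, the slow inhibitory subunit, was at 10.7, 6.91 and 49.8 CPM in control and 8.63, 11 and 46.3 CPM with AMD3100 (log2 fold change 2.37, SE 0.29, adjusted p = 1.09e-04). Tnnc1, shared by slow fibers and heart, was at 7.6, 9.31 and 52.9 CPM in control and 6.73, 14.7 and 66.5 CPM with AMD3100 (log2 fold change 2.64, SE 0.31, adjusted p = 8.26e-05). In these 4 genes the 2 replicate 3 tubes stood apart from the other 4.

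Both alpha actins, which form the core of the thin filament, were called higher. Acta1, the skeletal alpha actin, was at 18.9, 16 and 118 CPM in control and 19.4, 15 and 174 CPM with AMD3100 (log2 fold change 3.06, SE 0.21, adjusted p = 1.53e-06). Actc1, the cardiac alpha actin that precedes Acta1 in embryonic muscle, was at 130.1, 126 and 262 CPM in control and 92.2, 66.6 and 410.0 CPM with AMD3100 (log2 fold change 1.75, SE 0.24, adjusted p = 2.70e-04). Its fold change was smaller than that of Acta1. Tpm2, the beta tropomyosin that smooth muscle also makes, was at 61.5, 52.4 and 63.8 CPM in control and 32.4, 36.6 and 95.3 CPM with AMD3100 (log2 fold change 0.86, SE 0.27, adjusted p = 0.0342). Its fold was 1.12 within control and 2.76 within AMD3100, and the call was lost without AMD3100 replicate 1, 2 or 3 or control replicate 2. With all libraries kept it was lost in limma-voom after quantile normalization (adjusted p = 0.0639) and in edgeR with library totals only (adjusted p = 0.109). Neb, the giant ruler of the thin filament, was at 16.1, 15.8 and 9.96 CPM in control and 8.11, 5.25 and 24.2 CPM with AMD3100 (log2 fold change 0.76, SE 0.55, adjusted p = 0.372). Control replicate 3 was below both other control tubes for Neb.

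Des, the intermediate filament that ties myofibrils together, was at 12.4, 20.5 and 191 CPM in control and 10.3, 16.6 and 239.9 CPM with AMD3100 (log2 fold change 3.86, SE 0.25, adjusted p = 1.14e-06). Ttn, the giant spring of the sarcomere, was at 36.9, 60.6 and 45.7 CPM in control and 31.9, 25.2 and 147 CPM with AMD3100 (log2 fold change 1.31, SE 0.44, adjusted p = 0.048). Control replicate 3 lay among the other tubes. Within control the fold was 0.938, within AMD3100 5.16, and without AMD3100 replicate 3 the log2 fold change was −0.07. The call was lost without AMD3100 replicate 3, and also without control replicate 1 or AMD3100 replicate 1 or 2. With all libraries kept it was lost in DESeq2 (adjusted p = 0.164) and in edgeR with upper quartile scaling (adjusted p = 0.0514), library totals only (0.0879) or robust estimation (0.0744). The Z-disc proteins Actn2 and Ldb3 were higher in both replicate 3 tubes (6.17 and 10.1 CPM for Actn2, 4.28 and 8.21 CPM for Ldb3, against at most 4.81 and 1.21 CPM elsewhere) without passing (log2 fold change 2.04, SE 1.47, adjusted p = 0.374 for Actn2 and log2 fold change 4.07, SE 1.54, adjusted p = 0.0786 for Ldb3). Ckm, the creatine kinase of mature fibers, stayed at or under 2.99 CPM in every tube.

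At the endplate, Chrna1, the alpha subunit of the muscle acetylcholine receptor, was at 1.14, 4.51 and 20.2 CPM in control and 1.61, 0.368 and 26.4 CPM with AMD3100 (log2 fold change 3.81, SE 0.70, adjusted p = 0.00167). Chrng, the gamma subunit of the fetal receptor, was at 4.9, 10.1 and 22.8 CPM in control and 4.26, 1.84 and 21.1 CPM with AMD3100 (log2 fold change 2.21, SE 0.50, adjusted p = 0.00626). Chrnd, the delta subunit, was at 2.27, 0.0727 and 6.27 CPM in control and 0.748, 0 and 7.6 CPM with AMD3100 (log2 fold change 3.41, SE 1.45, adjusted p = 0.117), higher in both replicate 3 tubes but not called. Musk, the receptor kinase that gathers the receptor, had 13 counts in control replicate 1, 6 in AMD3100 replicate 3 and none elsewhere. For excitation-contraction coupling, Casq2, a calcium-storing protein, was at 10.5, 1.96 and 22.6 CPM in control and 3.85, 0.552 and 37.3 CPM with AMD3100 (log2 fold change 3.06, SE 0.76, adjusted p = 0.0111), and Ryr1, the calcium release channel, at 2.88, 7.71 and 10.7 CPM in control and 4.54, 3.5 and 26.1 CPM with AMD3100 (log2 fold change 1.93, SE 0.56, adjusted p = 0.0248). Cacna1s, the voltage sensor that opens Ryr1, was at 1.31, 0 and 4.78 CPM in control and 0.0575, 0 and 6.5 CPM with AMD3100, with a wide error (log2 fold change 5.18, SE 1.94, adjusted p = 0.0752). The calls for Myod1, Chrna1, Chrng, Casq2 and Tnnt3 were also lost without AMD3100 replicate 3. That for Ryr1 was lost without any one of the 3 AMD3100 tubes, and that for Tnnt3 without AMD3100 replicate 1 and, in edgeR, with library totals only (adjusted p = 0.0591). Smyd1, Chrnd and Cacna1s were called higher without control replicate 1, and Smyd1 also without control replicate 2. With all libraries kept, Smyd1, Ldb3, Chrnd and Cacna1s were called higher by DESeq2 (adjusted p = 0.0344, 0.0168, 0.0402 and 0.00367), by limma-voom after quantile normalization and by edgeR with no filter on low counts, and Actn2 by limma-voom (adjusted p = 0.0243).

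For scale, replicate 2 was set against replicate 1 in the same way. No gene was called by edgeR's test (690 genes, 5.07%, at an unadjusted p under 0.05), and 7 of the 32 members were under 0.05 unadjusted, 3 higher and 4 lower in replicate 2, against 2.42% and 2.65% of all genes. The direction was mixed. Tnni2, Myl4 and Des had log2 fold changes of 1.43, 1.0 and 0.71. Actn2, Chrnd, Casq2 and Tnnt2 had −8.58, −4.93, −2.48 and −1.09. Actn2 had no count in either replicate 2 tube, and Chrnd had 1 count in control replicate 2 and none in AMD3100 replicate 2.

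The study asked what AMD3100 changes in the glands. For the muscle genes, no member was called between AMD3100 and control (0 of 32, with 0% of the 13610 genes called), and 0 members were at an unadjusted p under 0.05, against 228 genes (1.68%). By DESeq2, 5 genes were called and no member, but it gave no p for Myog, Tnnt1, Tnnc2 and Mylpf, which were thus not tested by it. No member had its 3 AMD3100 libraries on one side of its 3 control libraries, against 7.44% of all genes. For the 28 members with both replicate 3 libraries above the other 4, such a split cannot occur in either direction. For them this count therefore says nothing of AMD3100. The median log2 fold change was 0.25 (0.02 over all genes), and single members ran from −1.38 for Ckm to 1.17 for Myh8, with standard errors of 0.42 to 2.07. For Myog the log2 fold change was −0.24 with an SE of 1.45, which left a wide range in either direction. A p above the threshold does not show that the groups were alike.

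Within each replicate number the muscle genes lay in different directions. On a scale of log2(CPM + 0.5), AMD3100 minus control had a median over the 32 members of −0.27 in replicate 1 and −0.85 in replicate 2, but 0.52 in replicate 3. Of the 32, 22, 26 and 5 were lower with AMD3100 in replicates 1, 2 and 3. Myod1, Myog and Chrng were lower in all 3 pairs, as were 14.6% of all genes tested, and Smyd1 and Myl4 higher in all 3, as were 15.7%. With the replicate number as a block, 3 genes and no member were called, and Myog (log2 fold change −1.16, SE 0.31, unadjusted p = 0.00442 and adjusted p = 0.468 in edgeR) and Myod1 (−2.05, SE 0.81, unadjusted p = 0.0312 and adjusted p = 0.722 in edgeR) were the only members under 0.05 unadjusted and lower, against 3.87% of all genes. In replicates 1 and 2 alone, 6 members were under 0.05 unadjusted and lower with AMD3100 (Myog, Myh3, Neb, Ttn, Actc1 and Tpm2, against 2.96% of all genes), with a median of −0.64 over the tested members. The direction depended on which replicate 3 tube was left out. Without AMD3100 replicate 3, 13 members were under 0.05 unadjusted, all lower (2.45% of all genes), with a median of −1.46, and without control replicate 3 the median was 1.30 and Myl4 alone was under 0.05.

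**Figure D4:**
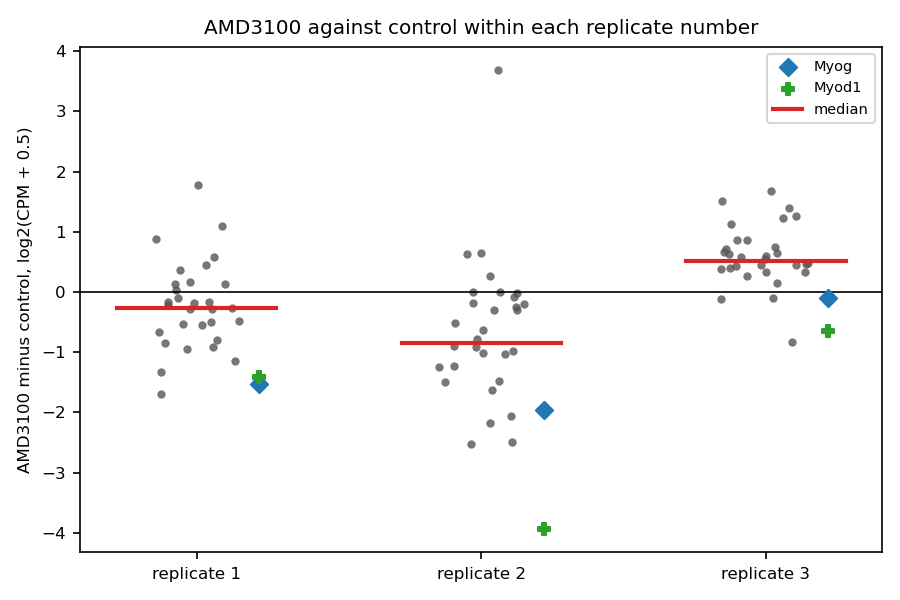
AMD3100 minus control on the scale log2(CPM + 0.5) for each of the 32 tested muscle genes within each replicate number, with the median as a red line and Myog and Myod1 marked apart from the other 30 points. The medians were −0.27, −0.85 and 0.52, and Myog and Myod1 lay below 0 in all 3.

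Whether the replicate 3 difference itself was larger with AMD3100 was tested as an interaction. No gene was called by edgeR (286 genes, 2.1%, at an unadjusted p under 0.05). Unadjusted, 10 of the 32 members were under 0.05, all with a larger difference under AMD3100, against 0.933% of all genes in that direction. They were Myog, Mef2c, Myh3, Mylpf, Actc1, Tnnt1, Tnnc2, Tpm2, Neb and Ttn, and the log2 difference was 1.65 for Myog, 1.98 for Myh3 and 2.46 for Ttn. DESeq2 called 25 genes, among them Myog, Myh3, Ttn and Actc1 (0.0808% of genes called in that direction). With at least 10 counts in every library, edgeR called 4 genes, among them Myog (adjusted p = 0.0460, with 0.0274% of genes called in that direction). Within replicate 3 the summed share was 1.36-fold higher with AMD3100, and within replicates 1 and 2 it was 0.712 of control. This contrast sets a single AMD3100 replicate 3 tube against a single control replicate 3 tube.

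A wider list of 78 skeletal muscle gene symbols, of which 77 were in the files and 50 tested, was read in the same way. In replicate 3, 15 were called higher and 2 lower (Ache, which breaks down acetylcholine, and Tpm3, a tropomyosin that many cells make), with a median log2 fold change of 1.93, where 13.1% of all genes tested were called higher and 11.1% lower. Those higher included the myoblast cadherin Cdh15, at 3.06, 6.4 and 42.4 CPM in control and 2.93, 5.52 and 66.5 CPM with AMD3100, and the caveolin of muscle, Cav3, at 1.75, 5.24 and 35.8 CPM in control and 3.85, 6.72 and 47.4 CPM with AMD3100. Pgam2, a glycolytic enzyme of muscle, was at 0, 0.436 and 17.7 CPM in control and 1.15, 0 and 21.3 CPM with AMD3100. Tpm1, the member of this wider list with the most counts and one that many cells use, was at 358, 354 and 279.7 CPM in control and 333, 341 and 351 CPM with AMD3100, with no difference that passed (log2 fold change −0.14, SE 0.13, adjusted p = 0.511). Fbxo32, Cacnb1 and Dmd, also with high counts, did not pass either, and 0 of the 50 were called between AMD3100 and control.

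Some genes of adult fibers were picked after their values were seen and set beside the name of the list, which they do not test. Adult heavy chain genes were low in every tube, with Myh1 at most 2.85, Myh2 at most 0.873 and Myh4 at most 2.62 CPM. Chrne, whose protein replaces that of Chrng in the adult receptor, was listed in AMD3100 replicate 2 alone (1.01 CPM), and Mb, the myoglobin gene, stayed at or under 2.76 CPM. Not all of the wider list was low, and 15 of its genes were called higher in replicate 3. Among these, Eno3 was at 27.3 and 31.6 CPM in control and AMD3100 replicate 3, against 0.874 to 2.98 CPM elsewhere. Atp2a1, which was not called, ranged from 2.67 to 14.5 CPM over all tubes.

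Other tissues were measured beside the muscle genes, and their part in the replicate 3 difference was not tested. Of 8 heart muscle markers, 3 were tested and none called (summed list 14.2 to 16.9 CPM in replicate 3 and 0 to 6.79 CPM in the others). Of those not tested, Nppa, Nppb and Myl7 were at 0 to 0.199, 0 and 0 to 0.962 CPM. Nkx2-5 had 18 counts in control replicate 3, 22 in AMD3100 replicate 1, 4 in AMD3100 replicate 3 and none elsewhere. Sln, a regulator of the calcium pump, was at 7.37 and 12.3 CPM in the replicate 3 tubes and at most 3.64 CPM in the others (log2 fold change 2.58, adjusted p = 0.125 in edgeR), and Myh6 had 10 counts in each replicate 3 tube and 1 in the others together. All 3 tested heart markers had a log2 fold change above 0, with a median of 1.54. Of 8 smooth muscle markers, 5 were tested and Acta2, which early skeletal muscle also makes, was called higher, at 45.4, 67.4 and 187 CPM in control and 55.4, 52.5 and 229 CPM with AMD3100 (summed list 210.1 to 252.8 against 79.7 to 117.3 CPM), while Myh11 and Cnn1 stayed at or under 2.58 CPM. The tendon regulator Scx rose, at 1.66, 3.49 and 18.9 CPM in control and 1.78, 2.02 and 9.69 CPM with AMD3100 (1 of 3 tested). The other tendon markers tested, Kera and Mkx, had log2 fold changes of 0.15 and −1.13 that did not pass. The tendon list had a median of 0.15, and its sums overlapped (22.7 to 44.2 against 14.7 to 24.9 CPM). In the cartilage list Col2a1, Col9a1 and Sox9 fell (3 of 4 tested, summed list 187.6 to 193.8 against 369.8 to 440.5 CPM). Most of that sum was Sox9, at 299, 320 and 164 CPM in control and 352, 381 and 169 CPM with AMD3100.

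The gland's own genes moved the other way in part. Of the 8 epithelial markers 5 fell in replicate 3 (Cldn7, Epcam, Krt14, Krt5 and Sox10), although the summed list overlapped (1271 to 3208 against 1803 to 2213 CPM). Of the 7 mesenchyme markers 3 fell (Col1a1, Col3a1 and Fgf10, summed list 1055 to 1066 against 2531 to 2615 CPM). The collagens Col1a1 and Col3a1 made up most of that sum in every tube. Osr1, Twist2, Pdgfra and Twist1 did not pass, with log2 fold changes of 0.05, −0.21, −0.47 and −0.49. Osr1 was at 169 and 160 CPM in control and AMD3100 replicate 3, against 140 to 184 CPM elsewhere. Neuronal markers were split, with 2 higher and 3 lower (775.1 to 1048 against 754.8 to 1005 CPM). In the Schwann cell list 1 of 4 tested was called, Fabp7, higher in replicate 3 (summed list 24.6 to 59.3 against 17.2 to 25.6 CPM). Fabp7 was at 12.1, 16.9 and 47.1 CPM in control and 5.52, 5.43 and 10.7 CPM with AMD3100. Its level in AMD3100 replicate 3 was thus below that in control replicates 1 and 2. Of the 5 macrophage markers tested, C1qa alone was called, higher in replicate 3. Cd68 was at 25.2 and 21.0 CPM in control and AMD3100 replicate 3, against 6.25 to 15.7 CPM elsewhere. It did not pass (log2 fold change 1.15, SE 0.40, adjusted p = 0.0561 in edgeR). Adgre1, Csf1r and Mrc1 had log2 fold changes of −1.39, −0.39 and −0.17 that did not pass. The list median was −0.17 (summed list 146.0 to 179.8 against 52.1 to 78.6 CPM). None of the 5 endothelial, 5 erythroid, 2 bone and 1 fat markers tested was called. Endothelial markers summed to 15.9 to 29.5 CPM in replicate 3 and 19.0 to 46.8 CPM in the others, erythroid ones to 952.2 to 1943 and 506.2 to 1825 CPM, bone ones to 8.26 to 8.58 and 9.95 to 26 CPM, and fat ones to 14.0 to 55.9 and 8.45 to 23.5 CPM.

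**Figure D5:**
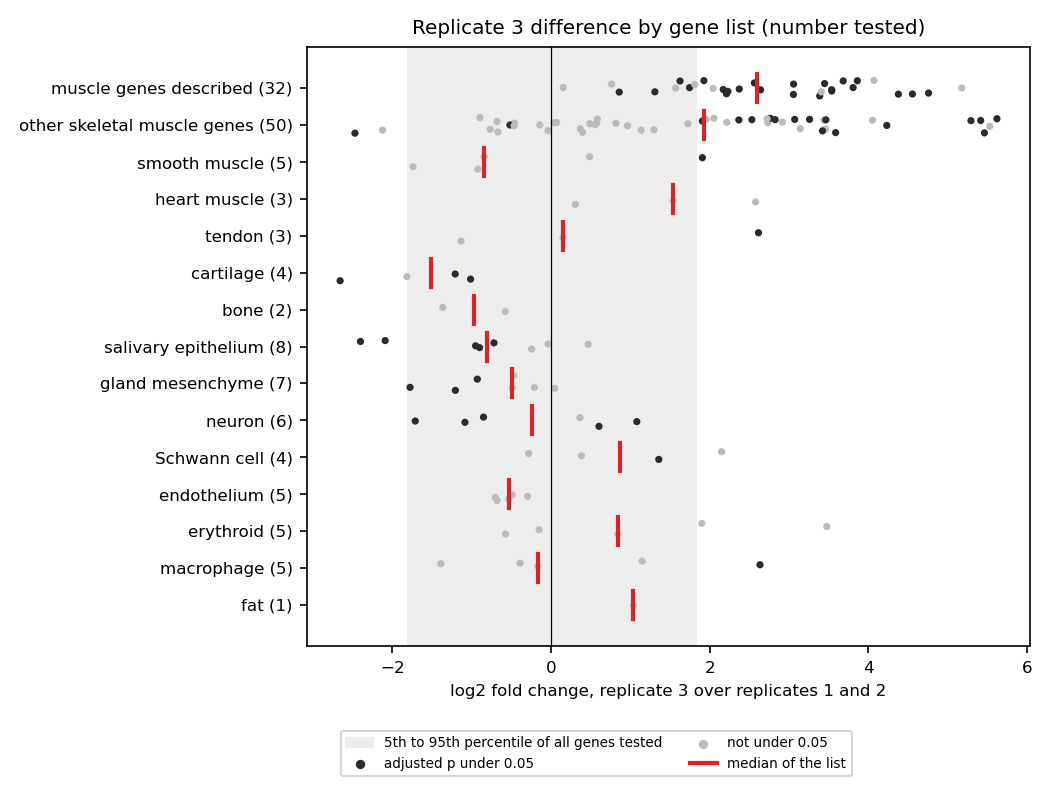
Log2 fold change of replicate 3 over replicates 1 and 2 for the tested genes of each list, with the number tested in brackets, dark points for an adjusted p under 0.05, the list median in red and the range from the 5th to the 95th percentile of all tested genes in grey (−1.81 to 1.82). The medians of the muscle lists were 2.60 and 1.93, and the grey range describes single genes, not medians.

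How alike the members were across the 6 libraries was described by Pearson's r of each member's log2 CPM with the log2 of the summed CPM of the other members. The median r was 0.909, 18 of 32 members exceeded 0.9, Tnnc2 (0.994) and Mylpf (0.991) were the most alike and Myl1 (0.341) the least. Outside both muscle lists, 30 of 13528 genes had an r over 0.99, and the 10 most alike were Lsm7, Prmt1, Ddr1, Efna2, Taldo1, Zfp358, Dnajc7, D2Wsu81e, Ngdn and Snap23, none of them in a marker list. Their replicate 3 log2 fold changes were smaller than those of most members, from 0.80 for Taldo1 to 1.47 for Ddr1 and Snap23. All values share the 6 libraries, which were few, so r is a description only.

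Transcript length and 3′ base composition were set beside the calls. The median transcript length was 1479 bases in the 23 called members, 3361 in the 9 tested and not called, and 3070 over all genes tested with a length (89.7% of them). The GC content of the last 300 bases, where 3′ libraries are read, had a median of 51.3%, 43.3% and 42.7% in the same order. Over 12202 genes, Spearman's rho of the replicate 3 log2 fold change with length was −0.181 and with GC 0.108, and 17.9% of the shorter genes were called higher against 8.85% of the longer ones. Of the members, 17 of 21 shorter than the median of all genes and 6 of 11 longer ones were called, with median log2 fold changes of 3.06 and 2.17. The part of length and GC in these differences was not tested. Besides Tnnc2, windows at the 3′ end were shared for Myh7 (124 of 251, with Myh6), Ckm (85, with A930016O22Rik) and Myh8 (6, with Myh1 and Myh2). Mylpf overlaps Septin1, Myl4 Cdc27 and Tpm2 Car9 in the annotation, and since the strand setting of the counting is not given in the sources used here, reads of such pairs may not be told apart.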

How the data were processed

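The authors deposited raw read counts per gene symbol for each of the 6 libraries, made with a QuantSeq 3′ mRNA-Seq kit as 50 base single reads. The submitters' processing notes name Bowtie2, edgeR and build mm10 without versions; the annotation and strand setting are not given in the sources used here. Of 23282 lines, 22 repeats of a symbol with the same counts were left out. Groups and replicate numbers came from the labels.

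Counts were compared with edgeR 4.0.16 in R 4.3.3 (TMM, filterByExpr on condition, glmQLFit, glmQLFTest, Benjamini-Hochberg over the 13610 genes tested, adjusted p under 0.05). The models held condition alone (treatment), condition and replicate 3, their interaction, and condition with the replicate number. The study's own methods name quantile normalization with edgeR. Alternatives were DESeq2 1.42.0, limma 3.58.1 (voom after quantile normalization), other scalings, filters and robust estimation, Rn45s left out, a replicate block, and each library left out. Replicate 3 against replicate 1 or 2 alone was added after seeing the data. The main models were tested on simulated counts with known changes, in edgeR and in DESeq2. The other alternatives were not.

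The members and lists were chosen with earlier results of these data known. Values per library are given for the 15 members with the highest mean CPM, for Pax3, Pax7, Myf5, Myf6, Myod1 and Myog, and for each member called in any test; other genes named were the 8 of the wider list with the most counts (1 is not reported here), called markers and the 10 most alike in pattern, and the other members and muscle genes named were chosen after their values were seen. A count of 0 was read as up to 3 counts. The pairing used by the block comes from the replicate numbers that both groups share in the labels. The correlation of the deviations from the group means was 0.185, 0.171 and 0.584 for replicates 1, 2 and 3, and 0.146 and 0.198 across replicates 1 and 2. Positions and promoters are RefSeq on GRCm38.p6. Transcript lengths, 3′ GC and shared windows come from GENCODE vM1 on NCBIM37.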

Additional observations from a re-analysis of the deposited data

How the results depend on the processing

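The replicate 3 difference of the members kept its direction under every alternative run except for Myl1, Neb and Ttn. With library totals only, Myl1 was at −0.069, and with 1 library left out Myl1, Neb and Ttn ran from −0.51 to 0.79, −0.66 to 1.88 and −0.073 to 2.40, lowest without AMD3100 replicate 3 in each case. Between 20 and 27 members were called under the other scalings, tools and filters. Leaving out 1 library gave 13 to 25 members called, 17 to 28 at an unadjusted p under 0.05, and 1593 to 3194 genes called, with the lowest member counts without AMD3100 replicate 3. The summed share differed by 2.51 on the log2 scale, and by 2.99 without the members that heart or smooth muscle also use.

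For AMD3100 against control, no member was called in any setting, though DESeq2 gave no p for Myog, Tnnt1, Tnnc2 and Mylpf. DESeq2 called 5 genes and a term for replicate 3 called 7. The replicate block, from the pairing by number, called 3 genes and put 2 members under an unadjusted 0.05, as did the replicate 3 term, and replicates 1 and 2 alone put 6 there. With 1 library left out, 0 to 13 members were under 0.05 unadjusted. Directions of single members turned. Actc1, Tnnc2 and Mylpf were at −0.26, −0.18 and −0.17 with the block, at −0.24, −0.18 and −0.18 with the replicate 3 term, at −0.34, −0.31 and −0.27 with quantile normalization (Tnnt1 −0.051), and at −0.69, −0.58 and −0.53 in replicates 1 and 2 alone (Tnnt1 −0.30, Mef2c −0.17). With 1 library left out, Myog ran from −4.09 to 2.09, Actc1 from −1.14 to 0.58, Tnnt1 from −2.11 to 2.28, Tnnc2 from −3.37 to 3.20, Mef2c from −0.64 to 0.93 and Mylpf from −2.31 to 2.08. For the interaction, DESeq2 called 25 genes and 4 members, and a filter of at least 10 counts in every library 4 genes and 1 member. The cause of these changes was not tested. The block changed no other call.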

Other observations

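Genes that rose in replicate 3 included some outside both muscle lists. Of the 13610 genes tested, 55 (0.404%) were called higher with a log2 fold change over 3, and 12 of them are members, 10 are of the wider muscle list and 33 are of neither. The lists do not hold every gene that muscle uses, and the 33 included Dhrs7c, Hspb2, Apobec2 and Alpk3, which muscle is known to express, with log2 fold changes of 5.63, 3.87, 3.53 and 3.39. All genes named here were chosen from the 33 after their values were seen and stand for no group. Trf, transferrin, was at 3.67, 2.91 and 73.3 CPM in control and 4.95, 10.7 and 61.9 CPM with AMD3100, and Ttr, transthyretin, at 0, 0 and 19.2 CPM in control and 3.11, 0 and 10.3 CPM with AMD3100. F2, prothrombin, was at 0, 0 and 15.7 CPM in control and 1.5, 0 and 10.2 CPM with AMD3100, and Fgb, a fibrinogen chain, at 1.57, 0 and 17.6 CPM in control and 0.345, 0 and 5.88 CPM with AMD3100. In each of these 4 both replicate 3 tubes were above the other 4. The 33 also held 2 genes that most cells use, Magoh, of the exon junction complex, at 197, 160.0 and 1427 CPM in control and 149, 150.3 and 1263 CPM with AMD3100, and Hnrnpl, a splicing regulator, at 139, 178 and 1337 CPM in control and 133, 90.8 and 978 CPM with AMD3100. S100a4, a calcium-binding protein of mesenchymal and immune cells, was at 22.7, 24.7 and 371 CPM in control and 32.4, 19.6 and 341 CPM with AMD3100. What these genes share with the muscle genes beyond the tubes was not tested.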
